A study of Mus musculus with 40 samples.

Results

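The activity-regulated genes described here are 30 genes whose transcripts are known to rise within minutes to hours of neuronal firing, taken as a list by gene symbol. The array annotation gave 29 of them at least 1 probe set, 54 probe sets in all of the 45101 on the array, which holds single-gene probe sets for 18194 genes, and Cyr61 was assigned none. Total RNA of the prefrontal cortex and of the hippocampus was hybridized to 40 Affymetrix mouse arrays, 10 for each of 4 groups. The groups were Df(16)A/+ and wild-type prefrontal cortex, and Df(16)A/+ and wild-type hippocampus, and the series describes 10 mice of each genotype. All mice were untreated C57BL/6 males, littermates of 8 weeks. Df(16)A/+ animals carry 1 copy of a chromosome 16 segment that corresponds to the human 22q11.2 microdeletion region, in every cell, and the wild-type animals carry both copies. The question for these genes is whether the deletion changes the level of transcripts that follow neuronal activity in either region.

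Activity-regulated genes are switched on by calcium and cAMP signals that reach the nucleus from the synapse and act on factors already present there, such as CREB, SRF and MEF2. The rapid members encode transcription factors (Fos, Egr and Nr4a families, Npas4), phosphatases that end the kinase signal (Dusp genes), and proteins that act at the synapse (Arc, Homer1, Nptx2, Bdnf). In cortex and hippocampus their transcripts follow recent experience, handling and stress as well as ongoing firing, and most decay quickly once the signal ends.

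The promoters of 6 members are shown because these genes carry the genotype differences or the shared array-to-array variation described below. They are taken from RefSeq (GRCm38.p6) and run from 250 bases before to 50 bases after the annotated start. Capitals mark matches on either strand to the CRE core TGACG (complement CGTCA), the full CRE TGACGTCA, the EGR site GCGNGGGCG and the TATA box TATAAA. The core lies inside the full site, so the full sites in Dusp1 and Btg2 each hold a core on both strands.
Fos (chr12:85473640-85473939, plus strand): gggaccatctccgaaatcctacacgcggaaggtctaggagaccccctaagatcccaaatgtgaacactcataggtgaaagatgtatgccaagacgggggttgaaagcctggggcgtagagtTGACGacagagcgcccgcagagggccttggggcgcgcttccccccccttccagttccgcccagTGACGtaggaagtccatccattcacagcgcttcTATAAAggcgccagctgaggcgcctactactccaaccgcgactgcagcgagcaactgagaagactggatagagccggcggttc
Npas4 (chr19:4989922-4990221, minus strand): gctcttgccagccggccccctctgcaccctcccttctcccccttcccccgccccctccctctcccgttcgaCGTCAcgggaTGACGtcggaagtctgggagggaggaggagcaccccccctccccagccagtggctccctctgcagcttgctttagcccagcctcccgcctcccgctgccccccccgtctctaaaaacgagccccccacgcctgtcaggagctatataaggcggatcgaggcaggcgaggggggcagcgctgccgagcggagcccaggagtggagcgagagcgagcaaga
Dusp1 (chr17:26508423-26508722, minus strand): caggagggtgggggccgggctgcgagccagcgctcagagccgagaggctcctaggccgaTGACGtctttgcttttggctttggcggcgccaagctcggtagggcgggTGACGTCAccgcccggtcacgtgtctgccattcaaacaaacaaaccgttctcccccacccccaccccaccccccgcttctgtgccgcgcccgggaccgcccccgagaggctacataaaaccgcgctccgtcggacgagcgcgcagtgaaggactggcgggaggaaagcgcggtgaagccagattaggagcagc
Btg2 (chr1:134079106-134079405, minus strand): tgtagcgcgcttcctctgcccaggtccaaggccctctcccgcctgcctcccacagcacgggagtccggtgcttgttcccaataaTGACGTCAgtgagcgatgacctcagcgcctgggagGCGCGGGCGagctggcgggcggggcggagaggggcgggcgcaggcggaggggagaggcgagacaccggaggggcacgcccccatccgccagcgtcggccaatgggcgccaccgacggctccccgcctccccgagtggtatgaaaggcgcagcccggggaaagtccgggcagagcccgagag
Nr4a1 (chr15:101266596-101266895, plus strand): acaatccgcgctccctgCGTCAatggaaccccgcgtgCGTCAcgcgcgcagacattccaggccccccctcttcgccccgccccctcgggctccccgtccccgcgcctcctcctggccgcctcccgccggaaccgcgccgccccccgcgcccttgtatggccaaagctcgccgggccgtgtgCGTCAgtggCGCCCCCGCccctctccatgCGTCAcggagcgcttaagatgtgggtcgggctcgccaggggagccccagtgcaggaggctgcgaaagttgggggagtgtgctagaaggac
Homer1, first of 2 entries (chr13:93303507-93303806, plus strand): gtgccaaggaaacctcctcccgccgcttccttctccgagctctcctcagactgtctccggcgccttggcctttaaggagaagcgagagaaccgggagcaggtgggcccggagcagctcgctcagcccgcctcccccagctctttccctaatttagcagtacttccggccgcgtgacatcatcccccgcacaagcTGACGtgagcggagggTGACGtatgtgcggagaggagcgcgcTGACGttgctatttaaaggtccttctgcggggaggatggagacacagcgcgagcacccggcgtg

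RefSeq promoter entries were matched for 23 members, which have 35 promoters between them. Egr1, Egr3, Arc, Ier2, Nptx2, Sik1 and Trib1 are named only. The CRE core was found in 22 of the 35 promoters (62.9%), and in 20.8% of the 32851 mouse promoters of the same length. In Fos the core nearest the start covers positions -66 to -62 and the TATA box -33 to -28. Nr4a1 holds 4 cores and Homer1 holds 3, all of the latter between positions -56 and -10. The full CRE was present in 2 member promoters, those of Btg2 and Dusp1 (5.71%, against 1.79% of all promoters). The CArG box, which SRF binds, was present in 5 member promoters of Egr2 and Dusp5 (14.3%, against 1.63%), and the EGR site in 7 (20.0%, against 5.55%). The AP-1 site TGANTCA was found in 1 (2.86%, against 7.81%), the Nr4a site AAAGGTCA in none (0 of 35, against 1.51%), and TATAAA in 5 (14.3%, against 13.6%). These letter matches describe the windows and say nothing on binding in these tissues.

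Values are the deposited log2 signals after GCRMA, on which a difference of 1 is a doubling. The 2 regions were on different scales, with the 95th percentile of an array between 11.6 and 11.7 in prefrontal cortex and between 10.9 and 11.1 in hippocampus, so each region was fitted alone and levels are not compared between regions or between probe sets. Probe sets above 4 in at least 10 of the 20 arrays of a region were tested with limma, and adjusted p-values are Benjamini-Hochberg values over all probe sets tested in the region. Called means an adjusted p under 0.05. Each gene is represented by its probe set of highest mean signal, and other probe sets are named where their call or sign differs. As a check of the genotype, Ranbp1, Zdhhc8, Hira and Dgcr8, which lie in the deleted segment, were at 39.0% to 60.3% of wild type in prefrontal cortex and at 48.5% to 61.9% in hippocampus (each called), while Txnrd2, also in the segment, was at 78.4% (adjusted p = 0.012) and 95.6% (adjusted p = 0.55). The arrays were not balanced over the batches in their run records. Of the prefrontal wild-type arrays 7 belonged to hybridization run 4 and 3 to run 3, and of the Df(16)A/+ arrays 5 belonged to run 4, 1 to run 3 and 4 to run 5. All 10 Df(16)A/+ arrays and 4 wild-type arrays were of chip lot 1, and the other 6 wild-type arrays of lot 2. In hippocampus 9 wild-type arrays were hybridized in run 2 and 1 in run 1, and of the Df(16)A/+ arrays 2 were hybridized in run 2 and 8 in run 3.

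In the prefrontal cortex 5 of the 24 members tested fell in Df(16)A/+ mice and none rose. They were Npas4 and Fos, Ier2 and Btg2, and the phosphatase gene Dusp1, at 49.8% to 68.3% of wild type. Of all genes tested in this region 15.7% were called lower and 3.27% higher, so 5 of 24 is a share not far from that of all genes. The median difference of the 24 members was -0.22, against -0.04 over all 10991 genes, and 19 of 24 (79.2%) lay below 0, against 66.0% of all genes. At an unadjusted p under 0.05 with limma the number was 10 of 24, against 3752 of all 10991 genes. By probe set, 7 of 39 member probe sets were called lower and 3 higher, against 12.5% and 5.94% of all probe sets. Fosb, Egr4, Trib1, Atf3 and Nfil3 had no probe set that passed the filter in this region. These are bulk tissue levels, in which fewer cells that express a gene and less RNA per cell cannot be told apart.

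**Figure D1:**
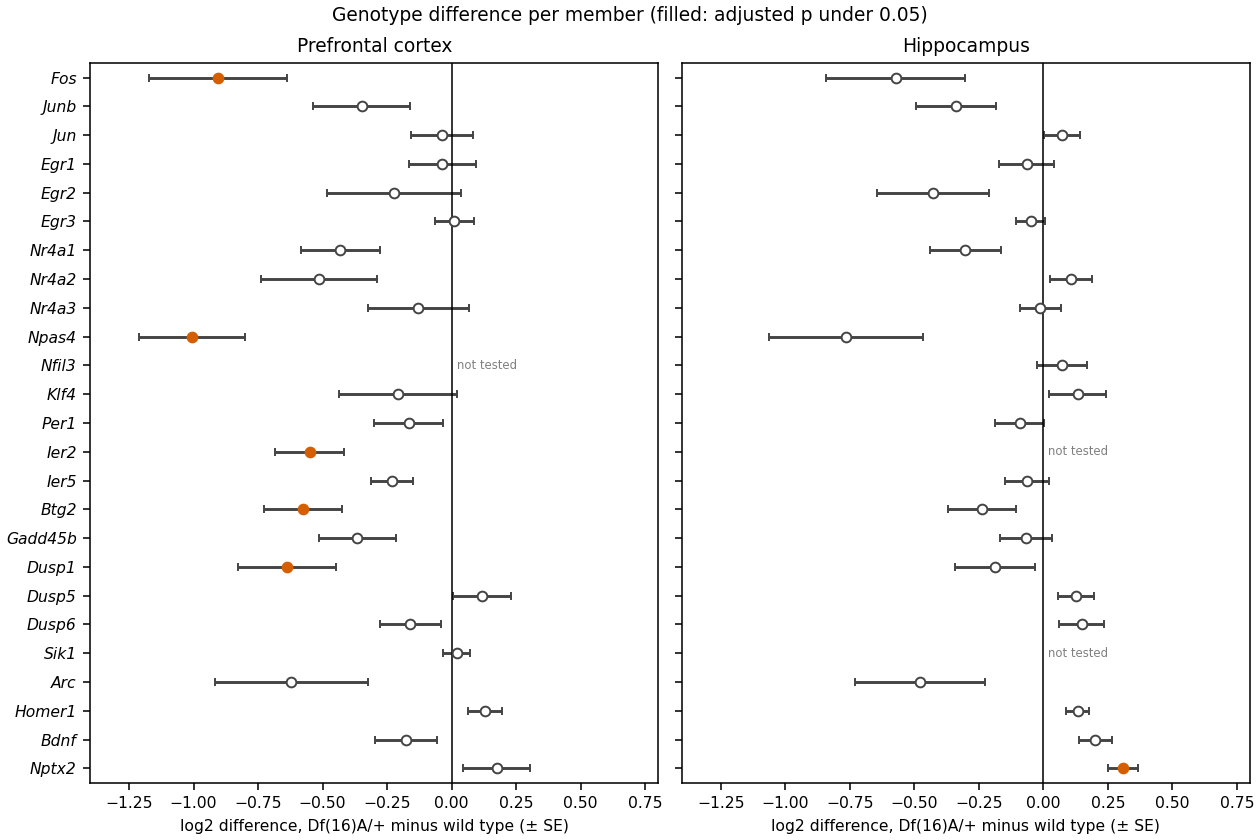
Log2 difference between Df(16)A/+ and wild type (x axis, points, with SE as bars) for each member tested, grouped by role, in prefrontal cortex (left) and hippocampus (right), 10 arrays a group. Filled points passed an adjusted p of 0.05: Fos, Npas4, Ier2, Btg2 and Dusp1 lay below 0 in prefrontal cortex, and Nptx2 lay above 0 in hippocampus.

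Among the transcription factors, Npas4, a neuron-specific factor induced by calcium entry, had prefrontal signals of 6.71 at the lowest, 7.31 at the median and 8.30 at the highest in wild type, and 5.60, 6.29 and 7.14 in Df(16)A/+. All 10 Df(16)A/+ arrays were below the wild-type mean and 8 of them were below every wild-type array, while 2 overlapped the wild-type range. The log2 difference was -1.01 ± 0.21 (SE), or 49.8% of wild type (adjusted p = 0.0028 with limma).

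Fos, the AP-1 subunit used most often as a marker of active neurons, ranged from 9.74 through a median of 10.59 to 11.04 in wild type, and from 8.24 through 9.56 to 10.74 in Df(16)A/+. Of the Df(16)A/+ arrays 7 lay below every wild-type array, and the other 3 fell inside the wild-type range, 2 of them above the wild-type mean. The difference was -0.90 ± 0.27 (SE; adjusted p = 0.023). The Df(16)A/+ group was spread more widely, with an SD of 0.78 against 0.46 in wild type.

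The other AP-1 genes were not called. Junb, a partner of Fos, had a difference of -0.35 ± 0.19 (adjusted p = 0.20), and Jun had -0.04 ± 0.12 (adjusted p = 0.86). Of the Egr family of zinc finger factors, Egr1 had -0.04, Egr3 0.01 and Egr2 -0.22, and none was called. A second Egr2 probe set, 1427683_at, had -0.62 ± 0.33 (65.1% of wild type, adjusted p = 0.203), with 5 of 10 Df(16)A/+ arrays below every wild-type array. The orphan nuclear receptor Nr4a1 had the smallest p of the members that missed the threshold: it ranged from 10.45 through 10.92 to 11.36 in wild type and from 9.69 through 10.44 to 11.10 in Df(16)A/+. Of those Df(16)A/+ arrays 5 were below every wild-type array and the rest overlapped, with a difference of -0.43 ± 0.15 (adjusted p = 0.053). Its relatives Nr4a2 (-0.51 ± 0.22, adjusted p = 0.11) and Nr4a3 (-0.13 ± 0.20, adjusted p = 0.68) were not called, and a further Nr4a2 probe set, 1447863_s_at, had the opposite sign (0.12, adjusted p = 0.42). Klf4, a zinc finger factor, had -0.21, and the clock gene Per1, which is also induced by CREB, had -0.17.

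Among the nuclear regulators, the immediate early gene Ier2 ranged from 5.79 through 5.95 to 6.61 in wild type and from 5.00 through 5.66 to 5.88 in Df(16)A/+. All 10 Df(16)A/+ arrays were below the wild-type mean and 6 were below every wild-type array, and the difference was -0.55 ± 0.13 (adjusted p = 0.0082). Btg2, which slows cell division and promotes the decay of mRNA, ranged from 6.88 through 6.96 to 7.77 in wild type and from 5.91 through 6.75 to 6.92 in Df(16)A/+.

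Wild-type Btg2 signals were lopsided, with 4 arrays above the rest, and 5 of the Df(16)A/+ arrays lay below all of them. Btg2 differed by -0.58 ± 0.15 (adjusted p = 0.013), and its second probe set, 1416250_at, by -0.55 (adjusted p = 0.013). Gadd45b, which takes part in DNA demethylation and stress signalling, was called on 1449773_s_at (-0.39 ± 0.11, adjusted p = 0.018) but not on the probe set of highest mean (-0.36 ± 0.15, adjusted p = 0.095). Ier5 was not called (-0.23 ± 0.08, adjusted p = 0.056), and its probe set 1460009_at had 0.02.

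Of the genes that restrain the signal, Dusp1, a nuclear phosphatase that switches off MAP kinases, ranged from 9.63 through 10.25 to 10.67 in wild type and from 8.45 through 9.75 to 10.27 in Df(16)A/+. In Df(16)A/+ mice 9 of 10 arrays lay under the mean of wild type and 4 lay under every wild-type array, with a difference of -0.64 ± 0.19 (adjusted p = 0.024). The ERK phosphatases Dusp6 (-0.16) and Dusp5 (0.12) and the kinase gene Sik1 (0.02), which restrains CREB coactivators, were not called.

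Of the synaptic and secreted effectors none was called on its probe set of highest mean. Arc, whose product drives internalization of AMPA receptors, had a difference of -0.62 ± 0.30 (adjusted p = 0.15), with Df(16)A/+ arrays from 8.65 to 11.31 and wild-type arrays from 10.31 to 11.54. The growth factor gene Bdnf had -0.18 ± 0.12 (adjusted p = 0.32). Homer1 and Nptx2 rose on some of their other probe sets. Homer1 encodes a scaffold of metabotropic glutamate receptors in long forms and an activity-induced short form, and Nptx2 encodes a secreted pentraxin that gathers AMPA receptors.

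Homer1 had 6 probe sets tested in prefrontal cortex, all with differences above 0, of which 2 were called. On 1421768_a_at wild-type signals ran from 9.14 through 9.47 to 9.75 and Df(16)A/+ signals from 9.32 through 10.17 to 10.51. Of the Df(16)A/+ arrays 8 exceeded every wild-type array, and the difference was 0.62 ± 0.13 (adjusted p = 0.0039). On 1425710_a_at it was 0.39 ± 0.09 (adjusted p = 0.0052), with 8 of 10 Df(16)A/+ arrays above all wild-type arrays. The probe set of highest mean, 1437363_at, had 0.13 ± 0.06 (adjusted p = 0.17). The annotation used here does not say which transcript form each Homer1 probe set reads. Nptx2 rose by 0.48 ± 0.14 on 1449960_at (adjusted p = 0.025), where 7 Df(16)A/+ arrays exceeded every wild-type array, and had 0.17 ± 0.13 on its probe set of highest mean (adjusted p = 0.37).

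**Figure D2:**
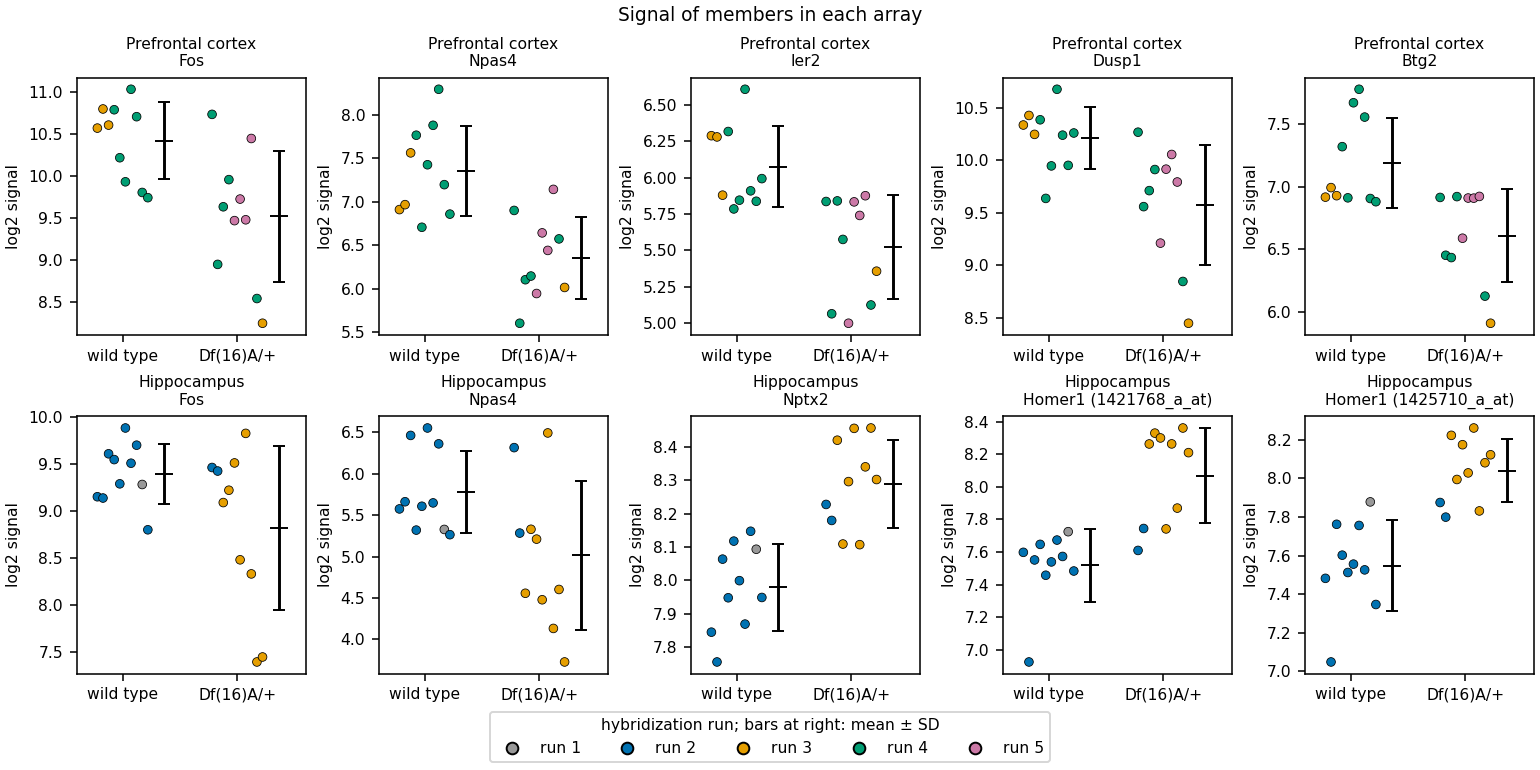
Log2 signal (y axis) of members in each array, by genotype, for prefrontal cortex (top) and hippocampus (bottom), with points coloured by hybridization run and the mean ± SD of each group of 10 at its right. In hippocampus the 2 Df(16)A/+ arrays of run 2 lay at 9.43 and 9.47 for Fos, inside the wild-type range, and the lower values came from run 3.

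With the run as a block, all 5 prefrontal calls held (Fos -1.10, Npas4 -1.17, Ier2 -0.60, Dusp1 -0.78 and Btg2 -0.78). With the chip lot as a block none was called, though each estimate stayed below 0: Fos -0.91 (adjusted p = 0.14), Npas4 -0.72 (adjusted p = 0.11), Ier2 -0.59 (adjusted p = 0.064), Dusp1 -0.75 (adjusted p = 0.09) and Btg2 -0.32 (adjusted p = 0.32). With both blocks none was called, and the estimates lay between -0.64 for Ier2 and -1.24 for Fos. Within run 4, Npas4 alone was called (-1.18, adjusted p = 0.049), and Fos had -0.76. Both Homer1 probe sets kept their call with the run block (0.55 and 0.38) and lost it with the lot block (0.57, adjusted p = 0.067, and 0.37, adjusted p = 0.075), while Nptx2 on 1449960_at was not called with either (0.35 and 0.64). No called prefrontal member lost its call when any 1 array was left out. Leaving out Df(16)A/+ replicate 1, an array with 7 of 24 members above every wild-type array, raised the count from 5 to 8 by adding Nr4a1, Ier5 and Gadd45b.

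**Figure D3:**
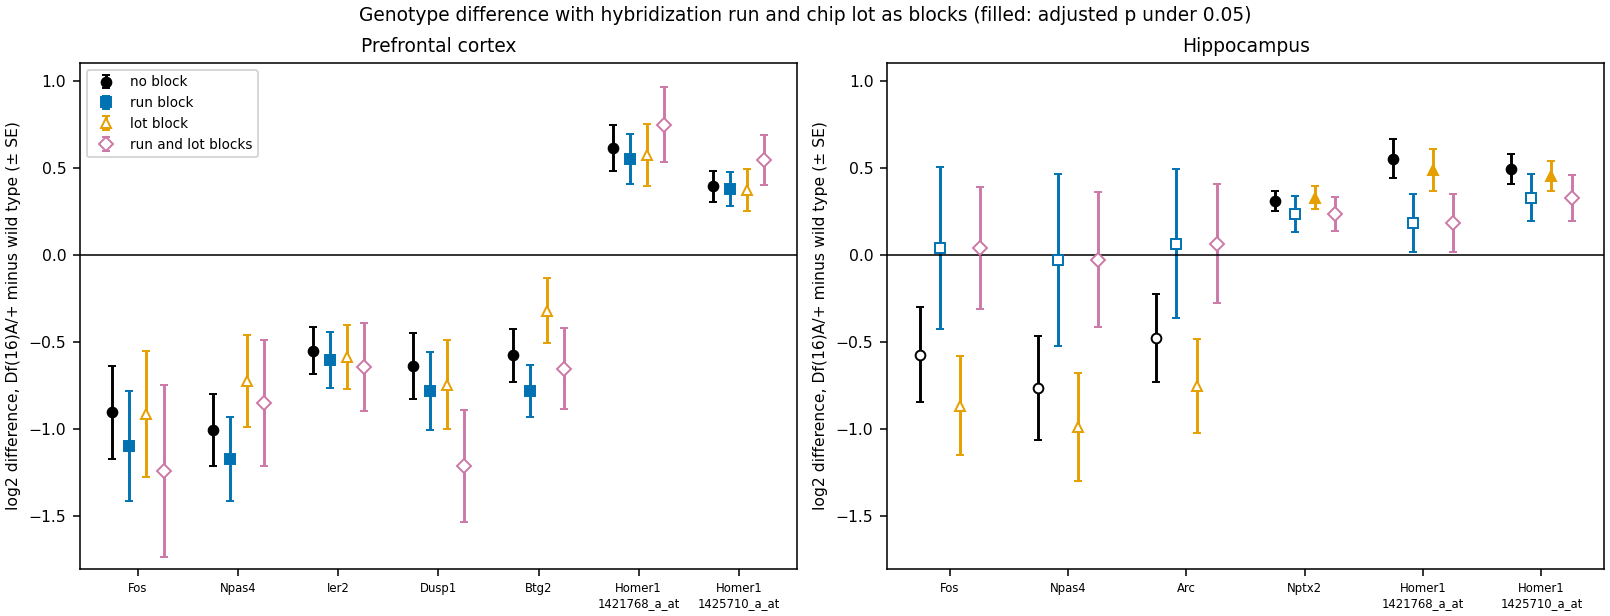
Log2 difference between Df(16)A/+ and wild type (y axis, ± SE) without a block and with hybridization run, chip lot or both as blocks, for members called in prefrontal cortex (left) and for hippocampus (right). Prefrontal estimates kept their sign in each fit shown, whereas in hippocampus Fos went from -0.57 to 0.04 and Npas4 from -0.76 to -0.03 with the run block.

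In the hippocampus Nptx2 was the 1 member of 23 that was called, and it rose in Df(16)A/+ mice. Over all genes tested there, 2.11% were called higher and 1.55% lower. The members had a median difference of -0.06, against 0.00 over all 10822 genes, and 14 of 23 (60.9%) lay below 0, against 48.7% of all genes. At an unadjusted p under 0.05 with limma the number was 7 of 23, against 2130 of all 10822 genes. By probe set, 3 of 37 were called higher and none lower, against 5.19% and 1.28% of all probe sets. Fosb, Egr4, Ier2, Trib1, Sik1 and Atf3 did not pass the filter.

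Nptx2 ranged from 7.76 through 7.97 to 8.15 in wild-type hippocampus and from 8.11 through 8.30 to 8.46 in Df(16)A/+. Of the Df(16)A/+ arrays 8 exceeded every wild-type array and all 10 exceeded the wild-type mean, with a difference of 0.31 ± 0.06 (adjusted p = 0.0043). With the run block it was 0.24 and not called (adjusted p = 0.83), in a fit that called 33 of 21153 probe sets. Homer1 was called on the same 2 probe sets as in prefrontal cortex. On 1421768_a_at wild type ran from 6.92 through 7.56 to 7.73 and Df(16)A/+ from 7.61 through 8.24 to 8.36, so that 9 of 10 Df(16)A/+ arrays exceeded every wild-type array (0.55 ± 0.11, adjusted p = 0.0058). On 1425710_a_at the difference was 0.49 ± 0.09 (adjusted p = 0.0025), and on the probe set of highest mean it was 0.13 ± 0.04 (adjusted p = 0.073), from 10.52 through 10.60 to 10.82 in wild type and from 10.64 through 10.74 to 10.94 in Df(16)A/+. With the run block neither was called (0.18 and 0.33, adjusted p = 1 and 0.80): the 2 Df(16)A/+ arrays of run 2 had a mean of 7.68 on 1421768_a_at, those of run 3 a mean of 8.17, and the 9 wild-type arrays of run 2 a mean of 7.49.

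Bdnf came next by p. It ranged from 8.74 through 9.12 to 9.31 in wild type and from 9.06 through 9.32 to 9.46 in Df(16)A/+, where 9 of 10 arrays exceeded the wild-type mean, and the difference of 0.20 ± 0.06 was not called (adjusted p = 0.063). It was 0.19 with the run block.

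The rapid transcription factors were lower in some Df(16)A/+ hippocampal arrays and not in others, and none was called. Fos ranged from 8.80 through 9.40 to 9.89 in wild type and from 7.40 through 9.16 to 9.83 in Df(16)A/+ (-0.57 ± 0.27, adjusted p = 0.20). Npas4 ranged from 5.26 through 5.63 to 6.55 and from 3.73 through 4.91 to 6.49 (-0.76 ± 0.30, adjusted p = 0.12). These low values lay in Df(16)A/+ arrays of run 3, which held no wild-type hippocampal array.

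Nr4a1 ranged from 9.85 through 9.97 to 10.33 in wild type and from 8.98 through 9.89 to 10.13 in Df(16)A/+ (-0.30 ± 0.14, adjusted p = 0.18). Junb ranged from 7.76 through 8.21 to 8.69 and from 7.11 through 8.04 to 8.41 (-0.34 ± 0.16, adjusted p = 0.19). For both, the lowest Df(16)A/+ arrays lay below every wild-type array and the others overlapped.

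The remaining members were not called in hippocampus. Among the transcription factors Egr2 had -0.43 ± 0.22 (adjusted p = 0.23), and Egr1, Egr3, Jun, Nr4a3, Per1, Nfil3 and Klf4 lay between -0.09 (Per1) and 0.13 (Klf4). Nr4a2 had 0.11 on its probe set of highest mean and 0.52 ± 0.16 on 1447863_s_at (adjusted p = 0.053), where 8 of 10 Df(16)A/+ arrays exceeded every wild-type array. Among the nuclear regulators and phosphatases Btg2 had -0.24, Dusp1 -0.19, Gadd45b -0.07, Dusp5 0.13 and Dusp6 0.15. Ier5 had -0.06 on its probe set of highest mean and 0.07 and 0.22 on the others. Arc had -0.48 ± 0.25 (adjusted p = 0.25), with Df(16)A/+ arrays from 7.72 to 10.02 and wild-type arrays from 8.92 to 10.11.

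Within run 2 the differences were near 0: Fos 0.04, Npas4 -0.03, Arc 0.06, Nr4a1 0.05 and Junb 0.07. The 2 Df(16)A/+ arrays of that run had Fos at 9.43 and 9.47 and Arc at 9.55 and 9.84, and the 8 arrays of run 3 ranged from 7.40 to 9.83 for Fos and from 7.72 to 10.02 for Arc. Of the 3 chip lots in the Df(16)A/+ hippocampal group, the 3 arrays outside lot 1 had Fos between 9.09 and 9.83. Genotype and run cannot be told apart for the 8 arrays of run 3. Chip lot could be set apart, since 5 of these 8 arrays and 9 wild-type arrays were of lot 1. With the lot as a block Fos had -0.87 (adjusted p = 0.113), Npas4 -0.99 (adjusted p = 0.0983) and Arc -0.75 (adjusted p = 0.15), and none of the 3 was called.

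The genotype difference was then compared between the regions with the difference of differences over all 40 arrays. By the series description both regions came from the same 10 mice of each genotype, but the labels do not tie arrays to mice, so the 40 arrays were treated as independent. The test also takes a log2 unit as equal in both regions, which the differing percentiles leave unsettled. None of the 25 members that could be tested was called, by any of their 41 probe sets, whereas 2.53% of all probe sets were called. At an unadjusted p under 0.05 with limma there were 3 members by their probe sets of highest mean. They were Bdnf, with a hippocampal minus prefrontal difference of 0.38 ± 0.14 (adjusted p = 0.11), Nr4a2, with 0.62 ± 0.25 (adjusted p = 0.14), and Dusp6, with 0.31 ± 0.15 (adjusted p = 0.23). By probe set there were 5 of 41, which also took in Jun on 1448694_at (0.31 ± 0.11, adjusted p = 0.11) and Nr4a2 on 1447863_s_at (0.40 ± 0.19, adjusted p = 0.23). The share of all probe sets at that level was not computed. Fos had 0.33 ± 0.39 and Npas4 0.24 ± 0.38, and Homer1 on 1421768_a_at had -0.06 ± 0.18. The calls made in prefrontal cortex alone are therefore not shown to differ from hippocampus. Of the 22 members tested in both regions 13 had differences below 0 in both, 3 above 0 in both, 5 below 0 in prefrontal cortex alone and 1 below 0 in hippocampus alone.

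**Figure D4:**
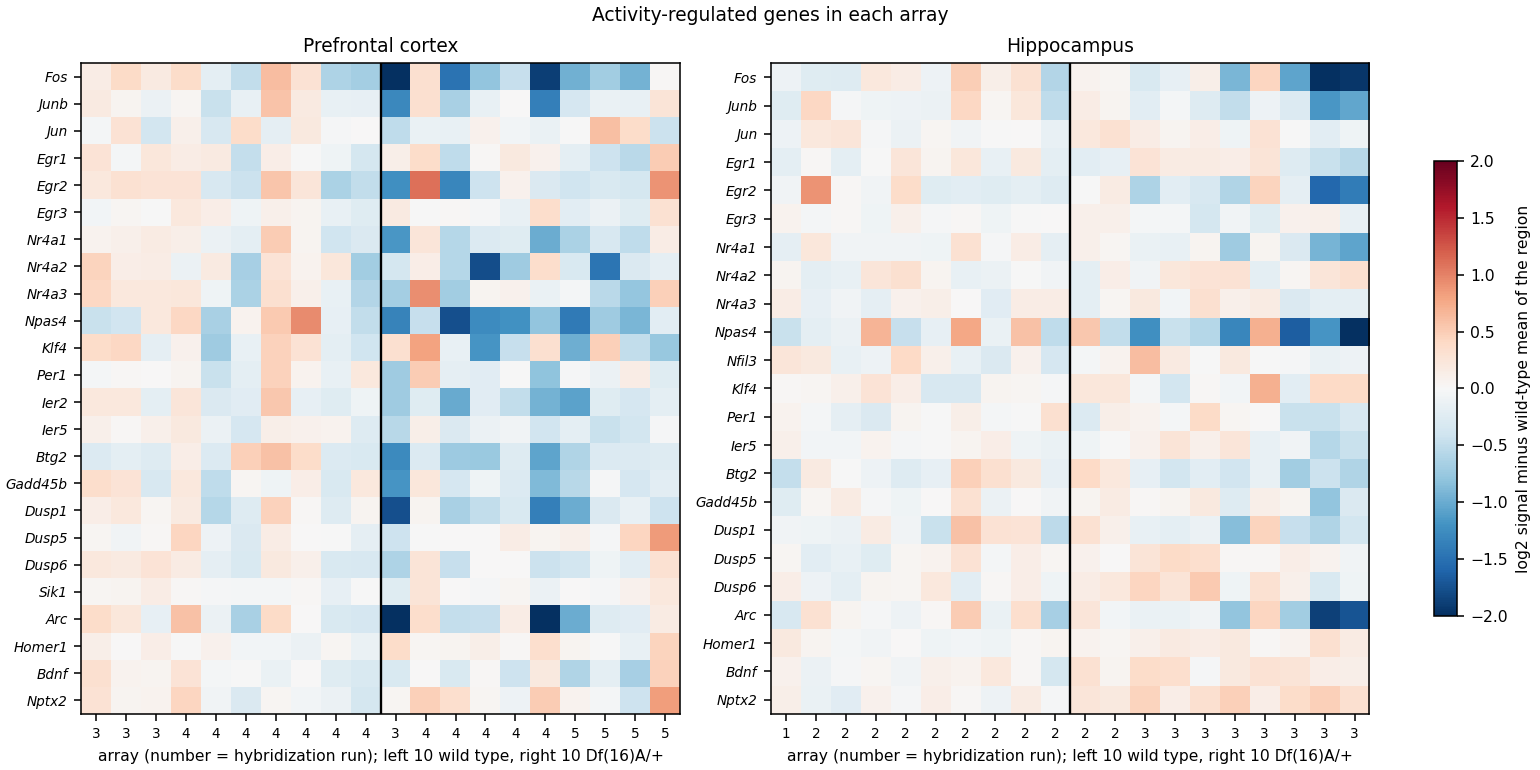
Log2 signal of each member minus its wild-type mean in the region (colour, values beyond the scale drawn at its ends) for every array (columns, labelled with the hybridization run, 10 wild-type arrays left of the line and 10 Df(16)A/+ arrays right of it). Low values of Fos, Arc, Nr4a1 and Junb fell in the same Df(16)A/+ arrays. In hippocampus these arrays were of run 3 and also held low values of Npas4. In Df(16)A/+ prefrontal cortex Npas4 followed Fos less closely (r = 0.60).

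The members varied widely between arrays of 1 genotype. The mean deviation of the tested members from the wild-type mean ran from -0.26 to 0.27 among wild-type prefrontal arrays and from -0.74 to 0.23 among Df(16)A/+ arrays. In hippocampus it ran from -0.19 to 0.15 and from -0.49 to 0.17. The SD was larger in Df(16)A/+ than in wild type for 23 of 24 members in prefrontal cortex and 19 of 23 in hippocampus, but also for 66.4% and 74.1% of all genes. A few arrays carried the extremes. Prefrontal Df(16)A/+ replicate 10, the 1 such array of run 3, was below every wild-type array for 18 of 24 members and had the lowest Fos of the group. Hippocampal Df(16)A/+ replicates 9 and 10, both of run 3, were below every wild-type array for 13 and 12 of 23 members. Df(16)A/+ replicate 8 of the prefrontal cortex, of run 5, was instead above every wild-type array for 10 of 24.

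Correlations with Fos were computed across the 10 arrays of each group for 90 pairs of a member and a group, with permutation tests of 100000 resamples adjusted over the 90. The threshold was passed by 35 pairs: 10 of 23 in wild-type and 12 of 23 in Df(16)A/+ prefrontal cortex, and 2 of 22 in wild-type and 11 of 22 in Df(16)A/+ hippocampus. Without the 2 arrays farthest from the median of Fos 5 of the pairs passed. Median r was 0.68, 0.75, 0.35 and 0.68 in that order. Without those 2 arrays it was 0.71, 0.62, 0.13 and 0.55. Within the largest run of a group it was 0.74 (7 wild-type prefrontal arrays), 0.35 (9 wild-type hippocampal arrays) and 0.75 (8 Df(16)A/+ hippocampal arrays), and the largest run of Df(16)A/+ prefrontal arrays held 5, too few for a value. Whether the 4 groups differ in these correlations was not tested. The share of all tested genes that pass the same test with Fos was not computed, so the counts of members past the threshold have no array-wide share beside them. Of all gene pairs, r exceeded 0.5 for 13.5% in wild-type and 12.5% in Df(16)A/+ prefrontal cortex. In hippocampus it did so for 12.6% in wild type and 18.9% in Df(16)A/+.

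Nr4a1 followed Fos closely. Its r was 0.93 in wild-type prefrontal cortex (Spearman rho 0.88, adjusted permutation p = 0.0009 and 0.013), 0.98 in Df(16)A/+ prefrontal cortex (rho 0.98) and 0.95 in Df(16)A/+ hippocampus (rho 0.92), and 0.55 in wild-type hippocampus, which did not pass. Arc had r of 0.83, 0.90 and 0.99 in the same 3 groups that passed, and 0.67 in wild-type hippocampus. Without the 2 farthest arrays these became 0.83, 0.83 and 0.96. Junb, Egr2 and Dusp6 also passed in these 3 groups. Dusp1 was the member with the highest lowest value, 0.68 to 0.87 over the 4 groups, and passed in all but wild-type prefrontal cortex. Npas4 passed in both hippocampal groups (0.76 and 0.80) and had 0.51 and 0.60 in the prefrontal groups.

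The link with Fos was weaker or changed sign in other members. On their probe sets of highest mean Ier2, Dusp5, Bdnf, Nfil3 and Nr4a2 passed in no group where they were tested. Their r still lay above 0 throughout for Ier2 (0.68 to 0.71), Dusp5 (0.39 to 0.66), Bdnf (0.19 to 0.64) and Nfil3 (0.17 to 0.30). For Nr4a2 it ran from -0.58 to 0.56. Nptx2 had r of 0.73 in wild-type prefrontal cortex and -0.64 in Df(16)A/+ hippocampus. Homer1 on its probe set of highest mean had -0.72 in Df(16)A/+ hippocampus (adjusted permutation p = 0.046; rho -0.67, adjusted p = 0.090), which became -0.44 without the 2 farthest arrays. In a second family of 58 pairs over the other probe sets, Homer1 1436387_at had -0.95 in that group (adjusted permutation p = 0.0021; rho -0.84, adjusted p = 0.056), -0.84 without the 2 farthest arrays and -0.96 within the 8 arrays of run 3. In the same family Nr4a2 passed on 1450749_a_at in Df(16)A/+ hippocampus, with r of -0.85 (adjusted permutation p = 0.0078; rho -0.72, adjusted p = 0.12). Without the 2 farthest arrays this became -0.64. Other pairs of this family passed with r above 0. Egr2 on 1427683_at had 0.95 in wild-type and 0.91 in Df(16)A/+ prefrontal cortex, and 0.94 in Df(16)A/+ hippocampus. Gadd45b on 1449773_s_at had 0.89 in Df(16)A/+ prefrontal cortex and 0.93 in Df(16)A/+ hippocampus. Btg2 on 1416250_at had 0.85 and 0.81 in wild-type and Df(16)A/+ hippocampus, and Ier5 on 1417613_at 0.80 in Df(16)A/+ prefrontal cortex. The 2 Homer1 probe sets called for genotype, 1421768_a_at and 1425710_a_at, had r between -0.36 and 0.45 over the 4 groups and passed in none.

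**Figure D5:**
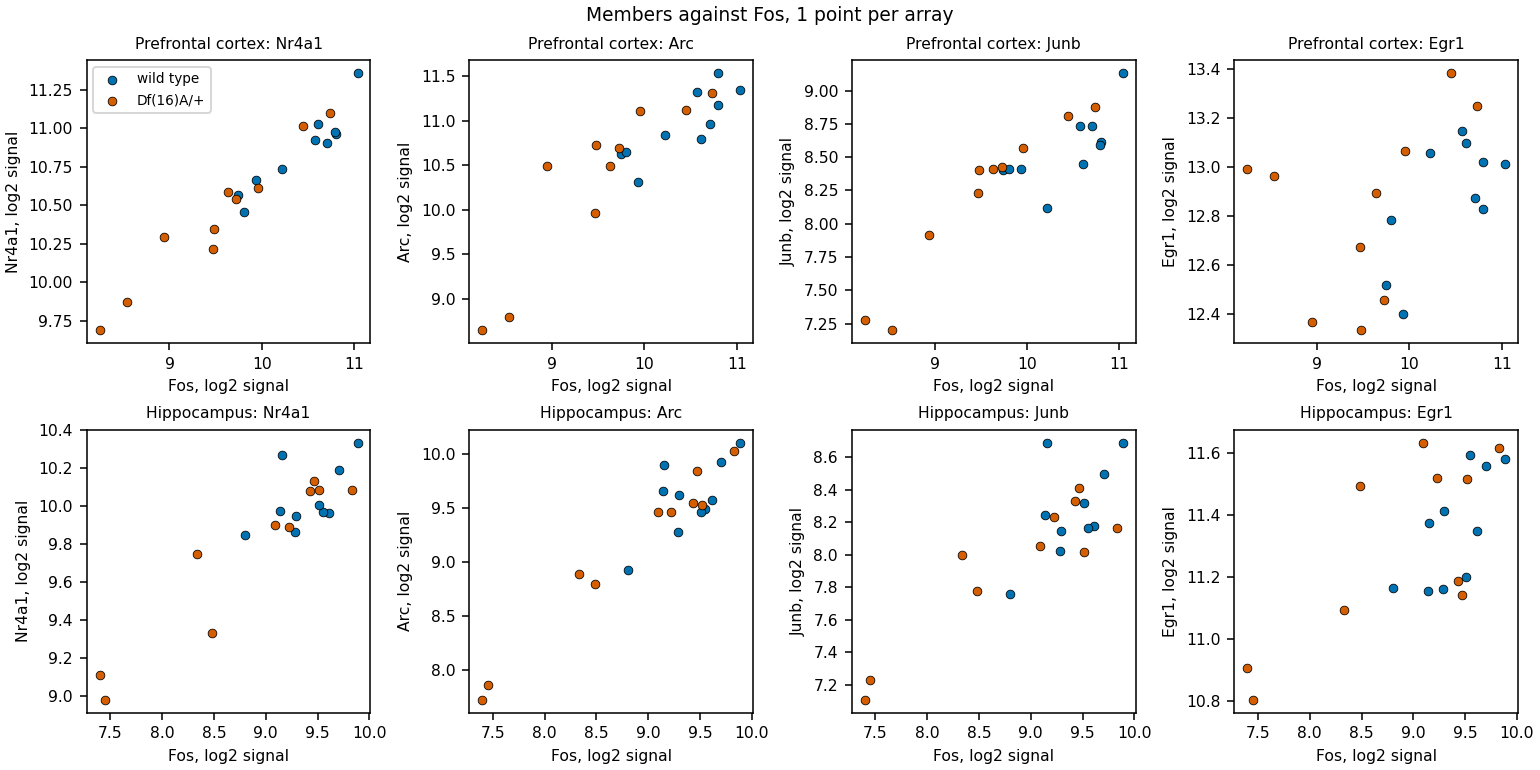
Log2 signal of Nr4a1, Arc, Junb and Egr1 (y axes) against that of Fos (x axes), 1 point per array, blue for wild type and orange for Df(16)A/+, prefrontal cortex above and hippocampus below. Nr4a1 and Fos rise together within both prefrontal groups (r = 0.93 and 0.98), and Egr1 in Df(16)A/+ prefrontal cortex is scattered (r = 0.39).

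Over all pairs of tested members the median r was 0.46 in wild-type and 0.39 in Df(16)A/+ prefrontal cortex, where all gene pairs had medians of 0.09 and 0.06. In hippocampus it was 0.07 in wild type, the same as the 0.07 of all gene pairs, and 0.27 in Df(16)A/+, against 0.11. The points of each correlation are 10 arrays that also share run and lot. Outside the list, the 8 genes most like Fos by their lowest r over the 4 groups, of 10504 genes with a probe set tested in both regions, were Sertad1 (lowest r 0.66), Ybx3 (0.65), Phlda1 (0.57), Kdm6b (0.57), Map2k3 (0.54), Usp7 (0.52), Klf10 (0.51) and Ifnar1 (0.51). In this ranking a gene takes the probe set with the highest lowest r. Members held ranks 1 to 3 in that order (Dusp1, Egr2 and Arc), with Junb at rank 6 and Nr4a1 at rank 9. Egr2 held its rank on 1427683_at (lowest r 0.67), whereas its probe set of highest mean had a lowest r of -0.18. Of these 8 genes Sertad1 (-0.52, adjusted p = 0.003 with limma) and Ybx3 (-0.32, adjusted p = 0.017) fell in Df(16)A/+ prefrontal cortex. Of all genes tested there 15.7% were called lower, and both calls come from the fit without a lot block. None of the 8 was called in hippocampus.

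Further genes of the pathway were grouped as other rapid targets, slower targets and the signalling proteins that lie between synapse and nucleus. Of 17 other rapid targets tested in prefrontal cortex, the NF-kappaB inhibitor gene Nfkbia rose (0.26) and Fbxo33 (-0.20) and the survival gene Mcl1 (-0.19) fell, and the median was -0.03. In hippocampus none of 17 was called. Of 19 slower targets in prefrontal cortex 2 fell, Inhba, which encodes an activin subunit (-0.48), and the enkephalin gene Penk (-0.17). Over all genes of that region 15.7% were called lower and 3.27% higher, so neither list held a larger share of falls than all genes. These calls were made without the chip lot as a block. In hippocampus 5 of 18 slower targets rose, namely Npy (0.26), Nrn1 (0.24), Gpr22 (0.23), Vgf (0.21) and Rasgrp1 (0.18), where Npy and Vgf encode secreted neuropeptides and Nrn1 a membrane protein that promotes neurite growth. Of all genes 2.11% were called higher in hippocampus. The Df(16)A/+ group held 8 arrays of run 3 and wild type none, and the run block left 33 of 21153 probe sets called. The medians of the slower targets were -0.03 and 0.08 in the 2 regions.

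Of 29 signalling genes in prefrontal cortex 4 rose and 2 fell, where 3.27% of all genes were called higher and 15.7% lower. With the chip lot as a block the calls over all prefrontal probe sets went from 4000 to 986. The CREB coactivator gene Crebbp had the largest of these differences (0.47 ± 0.10, adjusted p = 0.0041). The factor gene Mef2a (0.11), the kinase subunit gene Prkacb (0.09) and the cyclase gene Adcy1 (0.09) also rose, and Prkaca (-0.12) and Camkk2 (-0.11) fell. In hippocampus Crem, a relative of CREB (0.26, adjusted p = 0.047 with limma), and Mef2a (0.15, adjusted p = 0.0499) rose and none of the 29 fell. Of all hippocampal genes 2.11% were called higher and 1.55% lower. The run block, not used for these calls, left 33 of 21153 probe sets called.

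Single markers of cell types were called too. Of all genes 15.7% were called lower and 3.27% higher in prefrontal cortex, and 1.55% and 2.11% in hippocampus. A called gene need not stand for its list. The median was 0.01 for neuronal markers in prefrontal cortex and 0.16 in hippocampus, and -0.58 for prefrontal endothelial markers. Mobp of the oligodendrocyte list had 0.25 in prefrontal cortex and was not called. In prefrontal cortex the endothelial gene Slco1a4 (-0.58, 1 of 3 endothelial markers tested) and the mural and meningeal genes Pdgfrb (-0.35) and Ogn (-0.78; 2 of 7) fell, with list means of -1.08 to 0.50 in Df(16)A/+ and -0.49 to 0.49 in wild type for the endothelial markers. Vascular cells can also express Fos, Dusp1, Ier2 and Btg2, but which cells carried these transcripts here was not measured. The neuronal genes Slc17a7 (0.32) and Gad1 (0.11) rose (2 of 7), as did Ppp1r1b of the striatal list (0.45, adjusted p = 5.58e-05, with all 10 mutant arrays over the mean of wild type, 1 of 4 tested) and the astrocyte gene Slc1a3 (0.24, 1 of 6). The microglial gene C1qa (-0.29, 1 of 6), the oligodendrocyte gene Cnp (-0.17, 1 of 5) and Calb1 of the dentate gyrus list (-0.13, 1 of 1) fell. In hippocampus the neuronal genes Slc17a7 (0.38) and Nefl (0.20) rose (2 of 7), with Prox1 of the dentate gyrus list (0.27, 1 of 5) and Fezf2 of the cortical layer list (0.21, 1 of 5). Pdgfrb (-0.47, 1 of 8) and the microglial gene C1qb (-0.43, 1 of 6) fell, and no endothelial marker was called. These hippocampal calls were made without the run block, which left 33 of 21153 probe sets called. The neuronal list mean, relative to wild type, was 0.031 and 0.011 in the 2 Df(16)A/+ arrays of run 2. Wild-type hippocampal arrays ran from -0.082 to 0.063. The 8 Df(16)A/+ arrays of run 3, which held no wild-type hippocampal array, ran from 0.087 to 0.299. The beta-actin 3' minus 5' signal, a measure of RNA integrity, lay between 1.11 and 1.35 in Df(16)A/+ and between 1.13 and 1.39 in wild-type prefrontal cortex, and between 1.16 and 1.38 and between 1.18 and 1.65 in hippocampus. The part of cell composition in the members' differences was not tested. The 5 prefrontal calls were also made with the actin measure as a covariate. In hippocampus Nptx2 was called with it as well (0.28, adjusted p = 0.018), while the probe sets called there went from 1369 to 633.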

How the data were processed

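The values are the deposited log2 signals of 40 Affymetrix mouse expression arrays, made by the authors with GCRMA per the submitters' processing notes; no version is given in the sources used here. The array records served for batches alone: hybridization runs 1 to 5 (start times in the records), chip lots 1 to 5 and fluidics stations, and 2 arrays lacked a scan record. Of 45101 probe sets, 34945 were annotated with 1 gene, 932 with several, 9160 with none, and 64 were controls.

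Within a region, a probe set with signal over 4 (log2) on 10 or more arrays was tested with limma 3.58.1 in R 4.3.3, two-sided, Df(16)A/+ minus wild type, with Benjamini-Hochberg adjustment over all probe sets tested. The fit was tested on simulated data. Correlations used permutation tests of 100000 resamples (numpy 2.4.6), whose smallest possible p is 1e-05. The number of arrays limits the precision. Members, gene lists and tests were chosen with earlier results of these data known.

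Every member with a probe set is named, by the probe set of highest mean, with others where call or sign differs. Ranges are given for called members and those of smallest p. Of each pathway list, called genes are named (at most 6), as are called markers, and outside the lists the 8 genes most like Fos. The genes of the deleted segment were added as a check. Arrays were not paired by replicate number, since the labels do not say whether equal numbers mark pairs. The following correlations have no unmatched pairs beside them and cannot settle it. Same-numbered arrays of both genotypes correlated between -0.14 and 0.34 in prefrontal cortex (over 0.1 for 2 of 10) and between -0.14 and 0.31 in hippocampus (4 of 10). Between the regions they correlated between -0.27 and 0.16 in wild type (4 of 10) and between -0.22 and 0.20 in Df(16)A/+ (5 of 10).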

Additional observations from a re-analysis of the deposited data

Results flagged for a closer look

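Of 94 groups of 10 arrays (each tested member in each genotype and region), 3 held an array whose gap to its neighbour, as a share of the group's range, passed Dixon's 95% limit for 10 values; chance flags about 1 in 20 groups. In Df(16)A/+ hippocampus, replicate 3 had the highest Nfil3 signal of 4.87, with the next array at 4.45, and replicate 9 had the lowest Gadd45b signal of 7.22, with the next at 7.72. In wild-type hippocampus, replicate 9 had the highest Homer1 signal of 10.82, with the next at 10.68. The first 2 were arrays of hybridization run 3, and the wild-type array was the 1 array of run 1 and of chip lot 5.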

How the results depend on the processing

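No called member changed sign under any alternative. With the run block 10 of the 23 hippocampal members changed sign, none of them called. The prefrontal count of 5 became 3 without the filter (Fos and Dusp1 were lost as more probe sets entered the adjustment), 0 with the chip lot as a block, 0 with run and lot as blocks, 0 within lot 1, 1 within run 4, 8 with the probe set of smallest p (2 higher, 6 lower) and 8 with the mean over probe sets (1 higher, 7 lower). It was 5 to 8 when 1 array was left out (8 without Df(16)A/+ replicate 1), and between 5 and 7 in the other fits. The hippocampal count of 1 became 5 with array weights (3 higher, 2 lower, the latter Fos and Npas4), 0 with the run block, 0 with run and lot blocks and 0 within run 2. It became 2, both higher, with the lot block, the probe set of smallest p and the mean over probe sets. With 1 fit of all 40 arrays it was 2 (1 higher, 1 lower). It was 1 to 3 with 1 array left out, and rose without Df(16)A/+ replicates 1 (which added Npas4 as lower), 2 (to 3) or 5 or wild-type replicates 7 or 9. The replicate block, whose numbers are not known to pair arrays, gave 7 prefrontal, 1 hippocampal and 0 regional-difference calls, and the latter stayed 0 in every fit run. The 35 correlations became 5 without the 2 arrays of extreme Fos, where only 8 arrays remain, and 28 to 35 in the others. Within lots or runs few arrays remain, and in hippocampus run 2 holds 2 Df(16)A/+ arrays. The cause of the other changes was not tested.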
